A study of Mus musculus with 22 samples.

Results

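The helper lineage transcription factors described here were Gata3, Tbx21, Eomes, Rora, Foxp3, Bcl6, Maf and Pparg, 8 of the 55291 gene names in each RNA-seq library. They were taken by name, with earlier results of these data known. The set holds factors of the Th2, Th1, Th17, regulatory and follicular programmes of CD4 T cells. Eomes and Pparg are 2 factors that add to them. All 8 were found in every library and passed the filter on low values. The study comprises 22 samples from mice: 8 for RNA-seq and 14 for ATAC-seq, the ATAC-seq samples being not analysed here. The RNA libraries form 4 groups of 2. Each is named after where its cells were recovered, in tissue or in circulation, and which population they came from, tissue-resident memory cells (ex-TRM) or circulating memory cells (ex-Tcirc). The groups are tissue ex-TRM and tissue ex-Tcirc on one side, and circulating ex-TRM and circulating ex-Tcirc on the other.

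All groups share the same labels beyond location and origin. They are CD4+ T cells from female hosts of the Balb/c strain, 6 to 10 weeks old, with lung given as the tissue even for the circulating groups. In the design, effector Th2 cells carrying the OT-II creERT2 or DO11.10 T cell receptor transgene were given to hosts sensitized with ovalbumin, either C57BL/6 (Ly5.2) mice or BALB/c-nu/nu mice, which lack T cells of their own. Tamoxifen was given to induce Cre recombination, and 3000 to 50000 cells were sorted at day 49, or at day 71 after a second transfer and renewed ovalbumin exposure. The labels do not say which experiment gave which RNA library, so a difference between groups and one between experiments cannot be told apart. Nor do they tie the libraries of a group to separate mice, so a p-value reflects the spread between libraries, which can be technical. By design, every donor population began as effector Th2 cells with a transgenic receptor.

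A naive CD4 T cell that meets antigen takes on a helper programme under a lineage-defining transcription factor: GATA3 for Th2 cells, T-bet, encoded by Tbx21, for Th1 cells, FOXP3 for regulatory cells and BCL6 for follicular helper cells. These factors restrain each other, and a cell can hold more than 1 of them at lower levels, which is known for memory and tissue cells. MAF, RORA and PPARG act within several programmes, and both GATA3 and PPARG are known in lung Th2 cells for their part in type 2 cytokine and interleukin 33 receptor expression.

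The libraries differed in how many genes they detected. Names above 0 numbered 37471 and 37894 in tissue ex-TRM, 30488 and 32617 names in tissue ex-Tcirc, 29688 in circulating ex-TRM replicate 2, and 12785 and 7042 in circulating ex-Tcirc. Circulating ex-TRM replicate 1 listed only 917 names, and Maf, at 1.95 FPKM, was the only lineage factor above 0 in it, so it was treated as missing and circulating ex-TRM is a group of 1 library. FPKM, fragments per kilobase of gene scaled by the mapped fragments, allows levels to be compared between genes, but the files give no read counts and the depth is unknown. Summed over 11 T cell markers, the FPKM were 4810 to 4934 in tissue ex-TRM, 3930 to 4677 in tissue ex-Tcirc, 5323 in circulating ex-TRM and 4206 to 4536 in circulating ex-Tcirc, and Cd4 was above 0 in all 7 libraries. Among NK cell markers Ncr1 and Klra8 were listed at 0 in all 7, while Tyrobp reached 4.68 FPKM and Klre1 was above 0 in 6 libraries. Among B and plasma cell markers Cd79a and Cd79b were listed at 0 in all 7, while the immunoglobulin gene Igkc was at 12.1 to 32.5 FPKM in tissue ex-TRM, 41.4 to 281 in tissue ex-Tcirc, 24.9 in circulating ex-TRM, and 161 and 0 in circulating ex-Tcirc.

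Gata3, the Th2 lineage factor, was the highest of the 8 factors in every one of the 7 libraries. It was at 274 and 209.7 FPKM in tissue ex-TRM, 194 and 249.6 FPKM in tissue ex-Tcirc, 186 in circulating ex-TRM replicate 2, and 49.4 and 231 in circulating ex-Tcirc. The tissue groups overlapped, and circulating ex-Tcirc replicate 1 alone stood below the other 6 libraries. Group means were 242 ± 45.6 FPKM in tissue ex-TRM and 222 ± 39.1 FPKM in tissue ex-Tcirc (SD, n = 2 each). Within the protein-coding genes of a library, Gata3 ranked between the 96.6th and the 99.8th percentile. It stood 4.51 and 4.40 times above Rora in tissue ex-TRM, against 6.02 and 5.84 times in tissue ex-Tcirc. The gene lies at chr2:9857078-9887953 (GRCm38.p6).

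**Figure D1:**
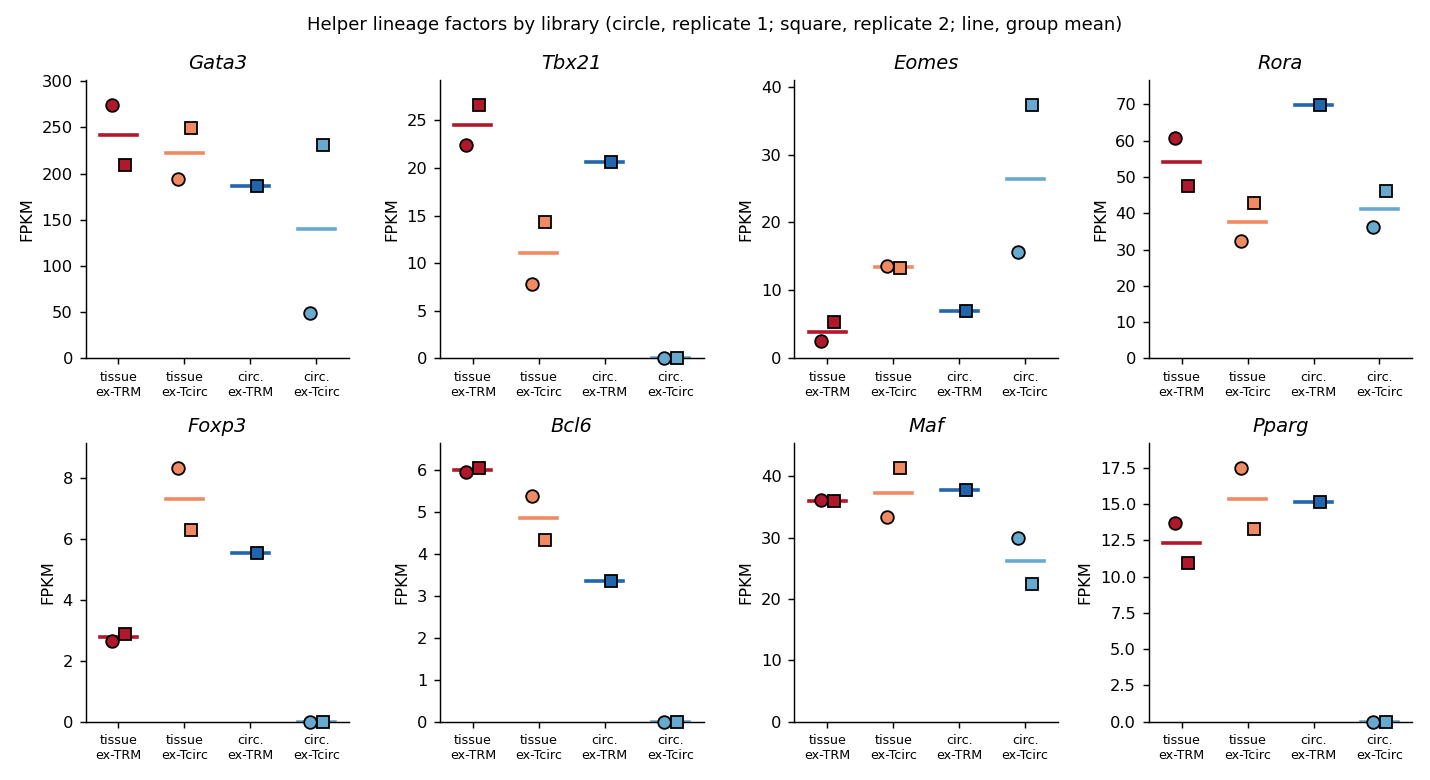
FPKM of the 8 lineage factors (vertical axes, linear from 0) in the 4 groups; circles are replicate 1, squares replicate 2 and horizontal lines group means, with 1 library in circulating ex-TRM. Tbx21 sits at 20.6 to 26.6 FPKM in ex-TRM libraries and at 0 to 14.4 in ex-Tcirc libraries, Eomes at 2.51 to 6.93 in ex-TRM and 13.4 to 37.3 in ex-Tcirc, and 4 factors are listed at 0 in both libraries of circulating ex-Tcirc.

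The pair of T-box factors differed between origins in opposite directions. Tbx21 encodes T-bet, the Th1 factor that switches on Ifng and Cxcr3. Eomes encodes eomesodermin, a close relative of T-bet that is known from memory and cytotoxic lymphocytes. They lie on different chromosomes, Tbx21 at chr11:97098007-97115331 and Eomes at chr9:118478186-118486132 (GRCm38.p6). Tbx21 was at 22.5 and 26.6 FPKM in tissue ex-TRM, 7.79 and 14.4 FPKM in tissue ex-Tcirc and 20.6 FPKM in circulating ex-TRM, and was listed at 0 in both libraries of circulating ex-Tcirc. Eomes ran the other way, at 2.51 and 5.29 FPKM in tissue ex-TRM, 13.7 and 13.4 FPKM in tissue ex-Tcirc, 6.93 in circulating ex-TRM, and 15.6 and 37.3 in circulating ex-Tcirc. No library of one origin overlapped the other for either gene. Of 10097 protein-coding genes with a tissue mean of at least 2 FPKM, 12.3% were higher in ex-TRM without overlap, as Tbx21 was, and 0.109% were lower, as Eomes was. Genes listed at 0 in any ex-Tcirc library cannot be lower in that way. Of the 2366 such genes above 0 in all 7 libraries, 0.465% were lower. In tissue, mean Tbx21 was 24.5 ± 2.94 FPKM in ex-TRM and 11.1 ± 4.65 in ex-Tcirc, 2.21 times higher in ex-TRM (SD, n = 2 each). Mean Eomes in tissue was 3.90 ± 1.96 FPKM in ex-TRM and 13.5 ± 0.21 in ex-Tcirc, 3.46 times higher in tissue ex-Tcirc.

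The ratio of the factors within a library does not depend on how that library was scaled. Tbx21 over Eomes was 8.94 and 5.03 in tissue ex-TRM and was 2.97 in circulating ex-TRM, against 0.571 and 1.08 in tissue ex-Tcirc and 0 in both circulating ex-Tcirc libraries. Tbx21 thus exceeded Eomes at least 2.97 times in all 3 ex-TRM libraries, while in tissue ex-Tcirc it was below Eomes in replicate 1 and close to it in replicate 2. Gata3 remained above both, at 12.2 and 7.88 times Tbx21 in tissue ex-TRM and 24.9 and 17.4 times in tissue ex-Tcirc.

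**Figure D2:**
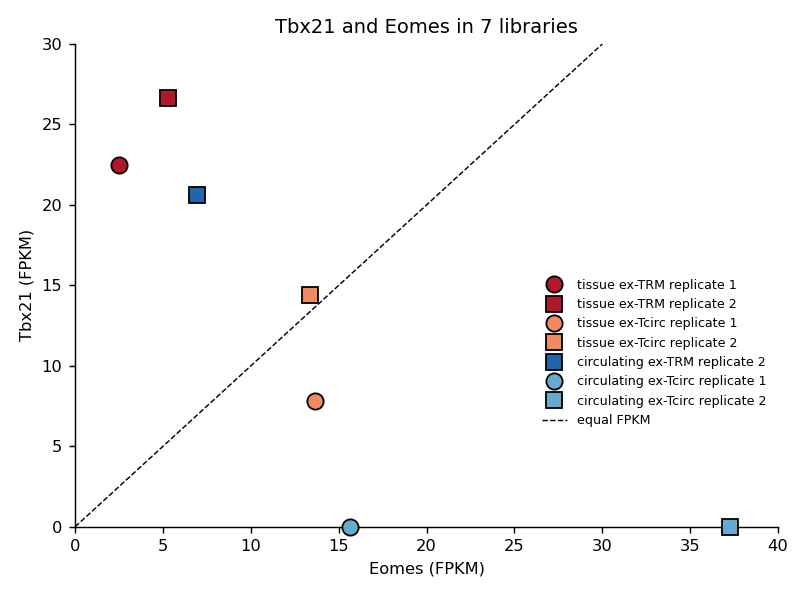
Tbx21 (vertical axis) against Eomes (horizontal axis), both in FPKM, in the 7 libraries; the dashed line marks equal levels. The 3 ex-TRM libraries lie above the line, tissue ex-Tcirc replicate 2 at 14.4 and 13.4 FPKM lies close to it, and the circulating ex-Tcirc libraries lie on the horizontal axis with Tbx21 listed at 0.

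The 250 bases before a transcript start of each T-box gene are shown because these genes went opposite ways with origin (RefSeq, GRCm38.p6, 5′ to 3′ on the gene's strand; Tbx21 at chr11:97115332-97115581 on the minus strand, Eomes at chr9:118477939-118478188 on the plus strand). Capitals mark GC boxes.
Tbx21: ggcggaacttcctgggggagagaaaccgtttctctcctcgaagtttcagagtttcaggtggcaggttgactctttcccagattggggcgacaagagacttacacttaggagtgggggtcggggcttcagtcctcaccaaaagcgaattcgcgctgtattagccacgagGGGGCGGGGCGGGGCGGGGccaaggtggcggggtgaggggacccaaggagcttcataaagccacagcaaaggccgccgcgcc
Eomes: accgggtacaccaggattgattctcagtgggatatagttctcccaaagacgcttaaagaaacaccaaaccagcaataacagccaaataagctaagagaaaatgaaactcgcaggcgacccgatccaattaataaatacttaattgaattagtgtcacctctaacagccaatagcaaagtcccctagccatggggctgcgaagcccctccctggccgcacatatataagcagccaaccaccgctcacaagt
The motifs searched on both strands were GATAA for GATA factors, GGTGTGA for T-box factors, TATAAA for the TATA box, GGGGCGGGG for the GC box, TGTTTAC for forkhead factors and AGGTCA for ROR and other nuclear receptors. Tbx21 held 3 overlapping copies of the GC box, which 13.9% of 21262 protein-coding promoters of this length hold, and none of the others. Eomes held none of the 6. Only these exact letters were searched, so a variant, such as the TATA-like tatataag in the Eomes stretch, was not counted. GATAA was present in 20.5% of these promoters and the T-box motif in 3.08%. The GC content was 60.8% for Tbx21 and 46.4% for Eomes, against a median of 55.6% over the promoters. Promoters were matched for 7 of the 8 factors.

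Lower levels in all 3 ex-TRM libraries than in all 4 ex-Tcirc libraries were rare. Among the 10097 genes, 11 (0.109%) were lower in ex-TRM without overlap, and Eomes was 1 of them. A gene listed at 0 in any ex-Tcirc library cannot be among them. Of the 2366 of these 10097 genes that were above 0 in all 7 libraries, the share was 0.465%. The gap for Eomes, between 6.93 FPKM in the highest ex-TRM library and 13.4 in the lowest ex-Tcirc library, was 1.93-fold, and the next in size, for Aida, was 1.20-fold. Higher levels in ex-TRM without overlap were common, at 12.3% of the 10097 genes, with Tbx21 and Rora among them, and at 6.21% of those above 0 throughout. A two-sided exact permutation test over the 35 splits of 3 against 4 libraries gave p = 0.0571 for Tbx21, Eomes and Rora. That is the smallest p this test allows, and its splits were made without regard to location. For the other 5 factors that test gave p of at least 0.286. The circulating ex-Tcirc libraries detected the fewest genes, tissue ex-Tcirc also detected fewer than tissue ex-TRM, and the part of this in the Eomes values was not tested.

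Listed markers of NK cells and CD8 T cells, other cells that carry T-box factors, were low. Of 6 NK cell markers, 3 and 2 were above 0 in tissue ex-TRM, 1 and 2 of them in tissue ex-Tcirc, 2 in circulating ex-TRM, and 1 and 0 in circulating ex-Tcirc, with summed FPKM of 4.82 to 4.87, 1.72 to 5.52, 2.24 and 0 to 2.01 in that order of groups. The CD8 T cell genes Cd8a and Cd8b1 summed to 1.32 to 2.99 FPKM in tissue ex-TRM, 0 to 2.95 in tissue ex-Tcirc and 0 in the circulating libraries. In circulating ex-Tcirc replicate 2, where Eomes was highest, both lists were at 0, but 84.0% of protein-coding genes with a tissue mean of 2 to 5 FPKM were also listed at 0 there, so the part of such cells in the Eomes values was not tested. In bulk libraries, fewer cells that express a gene and less RNA per cell cannot be told apart.

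Rora encodes a ROR nuclear receptor known in Th17 cells, in Th2 cells and in type 2 innate lymphoid cells (chr9:68653404-69388246). It was the second highest factor in 6 of the 7 libraries. Its levels were 60.8 and 47.6 FPKM in tissue ex-TRM, 32.3 and 42.7 FPKM in tissue ex-Tcirc, 69.8 in circulating ex-TRM, and 36.2 and 46.2 in circulating ex-Tcirc. Every ex-TRM library stood above every ex-Tcirc library, but the step between 47.6 and 46.2 FPKM is small next to the spread within groups. The tissue means were 54.2 ± 9.32 FPKM in ex-TRM and 37.5 ± 7.39 in ex-Tcirc (SD, n = 2 each). The Th17 genes Il17a, Il17f and Il23r were listed at 0 in all 7 libraries. The 6 markers of innate lymphoid cells, which express Gata3 and Rora, summed to 35.8 to 44.8 FPKM in tissue ex-TRM, 42.5 to 45.7 in tissue ex-Tcirc, 21.2 in circulating ex-TRM and 9.43 to 36.1 in circulating ex-Tcirc.

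Foxp3, the factor of regulatory T cells (chrX:7579676-7595243), was the lowest of the 8 in tissue ex-TRM replicate 2 and stood low elsewhere. It was at 2.65 and 2.88 FPKM in tissue ex-TRM, 8.30 and 6.27 FPKM in tissue ex-Tcirc and 5.52 FPKM in circulating ex-TRM, and was listed at 0 in both libraries of circulating ex-Tcirc. The tissue groups were apart, with a mean of 2.77 ± 0.16 FPKM in ex-TRM and 7.29 ± 1.44 in ex-Tcirc, 2.63 times higher in tissue ex-Tcirc (SD, n = 2 each). Circulating ex-TRM lay between them, so that origin did not order the libraries. Gata3 stood 103 and 72.8 times above Foxp3 in tissue ex-TRM, against 23.4 and 39.8 times in tissue ex-Tcirc. Ikzf2, which encodes the regulatory T cell factor Helios, was at 1.17 and 2.199 FPKM in tissue ex-TRM and at 4.76 and 2.37 in tissue ex-Tcirc. Ctla4, an inhibitory receptor of regulatory and activated T cells, had 34.2 and 37.9 FPKM in tissue ex-TRM and 16.4 and 29.3 in tissue ex-Tcirc. Foxp3 and Ikzf2 were therefore lower, and Ctla4 higher, in both tissue ex-TRM libraries, though for Ikzf2 only by 2.199 against 2.37 FPKM. Among 12 genes listed for regulatory T cells, Ikzf2 alone was lower without overlap. Besides Ctla4, Lrrc32 (0.847 and 0.749 FPKM against 0 and 0), Icos, Tnfrsf4 and Capg were higher without overlap, and the others overlapped. Between the tissue groups, 32.3% of all genes tested did not overlap.

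Bcl6 (chr16:23965050-23988866) and Maf (chr8:115703253-115706894) are factors of follicular helper cells, and Maf also takes part in interleukin 4 and interleukin 10 expression. Bcl6 was at 5.96 and 6.03 FPKM in tissue ex-TRM, 5.37 and 4.32 FPKM in tissue ex-Tcirc and 3.35 FPKM in circulating ex-TRM, and was listed at 0 in both libraries of circulating ex-Tcirc. All 4 tissue libraries were thus above all 3 circulating ones, of which only circulating ex-TRM was above 0. A two-sided exact permutation test, with splits made without regard to origin, gave p = 0.0571, the smallest it allows. Both circulating ex-Tcirc libraries were at 0 for 49.9% of protein-coding genes with a tissue mean of at least 2 FPKM. The tissue mean of Bcl6 was 5.42 FPKM. Of protein-coding genes with a tissue mean of 5 to 10 FPKM, 60.4% and 78.2% were also listed at 0 in circulating ex-Tcirc replicates 1 and 2. The share of all genes split in this way was not computed. Maf was the steadiest of the 8, at 36.1 and 35.9 FPKM in tissue ex-TRM, 33.5 and 41.3 FPKM in tissue ex-Tcirc, 37.7 in circulating ex-TRM, and 30.0 and 22.4 in circulating ex-Tcirc. Its tissue groups overlapped, and only the circulating ex-Tcirc libraries lay below the rest. Levels of the genes listed for follicular helper cells varied. Cxcr5, their chemokine receptor, was at most 3.63 FPKM. Pdcd1 was at 19.7 to 28.6 FPKM in tissue, 18.0 in circulating ex-TRM, and 17.8 and 0 in circulating ex-Tcirc. Slamf6 was at 9.63 to 17.7 FPKM in tissue, 42.5 in circulating ex-TRM, and 25.2 and 47.2 in circulating ex-Tcirc.

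Pparg encodes a fatty acid-sensing nuclear receptor that is known from adipocytes, alveolar macrophages and Th2 cells (chr6:115360879-115490404). It was at 13.7 and 10.9 FPKM in tissue ex-TRM, 17.5 and 13.3 FPKM in tissue ex-Tcirc and 15.2 FPKM in circulating ex-TRM, and was listed at 0 in both libraries of circulating ex-Tcirc. The tissue groups overlapped, with means of 12.3 ± 1.92 FPKM in ex-TRM and 15.4 ± 2.93 in ex-Tcirc (SD, n = 2 each). Among macrophage markers, Marco, a defining gene of alveolar macrophages, was listed at 0 in all 7 libraries. Siglecf was above 0 only in tissue ex-TRM replicate 2, at 0.686 FPKM. In contrast, Chil3 at 4.85 to 17.3 FPKM and Ear2 at 3.99 to 15.9 were above 0 in all 4 tissue libraries. The levels of PPARG targets varied widely. Fabp4 and Cd36 were at most 1.49 and 1.23 FPKM, while over the 4 tissue libraries Plin2 was at 22.0 to 41.4 FPKM, Cpt1a at 18.9 to 34.2 and Abcg1 at 9.96 to 14.1. In circulating ex-Tcirc, Plin2 was at 60.6 and 0 FPKM, Cpt1a at 69.5 and 0, and Abcg1 at 22.1 and 0.733. The 12 targets summed to 90.8 to 101.5 FPKM in tissue ex-TRM and 81.8 to 105 in tissue ex-Tcirc. Their sum was 70.4 in circulating ex-TRM, and 243 and 2.75 in circulating ex-Tcirc. The 14 macrophage markers summed to 133 to 189 FPKM in tissue ex-TRM, 100.2 to 281 in tissue ex-Tcirc, 112 in circulating ex-TRM and 300.4 to 1003 in circulating ex-Tcirc, where Pparg was at 0.

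The comparison of ex-TRM with ex-Tcirc cells within tissue asked whether origin left a difference once both were in the lung. Without overlap between libraries, 3 factors, Tbx21, Rora and Bcl6, were higher in tissue ex-TRM, and Eomes and Foxp3 were lower. The same held for 32.3% of the 28325 genes tested, 21.8% higher and 10.5% lower. The log2 difference was -1.63 ± 0.57 (SE) for Eomes, 1.13 ± 0.41 for Tbx21 and -1.13 ± 0.32 for Foxp3, on the log2(FPKM + 1) scale, which understates changes at low levels. With limma over all genes tested, the adjusted p was 0.890 for Eomes, 0.939 for Tbx21 and 0.576 for Foxp3, so none of them passed the threshold of 0.05. Differences of the other 5 ran between -0.30 for Pparg and 0.52 for Rora, with limma adjusted p of 1.

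No gene passed in this comparison. limma called 0 of 28325 genes (0%), the smallest adjusted p was 0.0714, and 1398 genes (4.94%) had an unadjusted p under 0.05, among them Eomes, Tbx21 and Foxp3. In a fit of the 4 tissue libraries alone over 10097 protein-coding genes, limma again called 0, with 440 genes (4.36%) unadjusted, and the adjusted p of all 3 factors was 0.755. Without tissue ex-Tcirc replicate 2, Tbx21 had a log2 difference of 1.53 (limma adjusted p = 0.0439) and Foxp3 of -1.30 (limma adjusted p = 0.0232), beside 5716 genes called in all. That fit leaves 1 tissue ex-Tcirc library, which is assumed to vary like the other groups, and no other setting run called either factor here. Summed FPKM of 9 B and plasma cell markers were 22.6 to 54.6 in tissue ex-TRM and 66.3 to 414 in tissue ex-Tcirc, and those of 7 alveolar epithelium markers 7.49 to 13.0 and 4.11 to 93.3. The part of these markers, and of the smaller number of genes detected in tissue ex-Tcirc, in the differences was not tested.

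**Figure D3:**
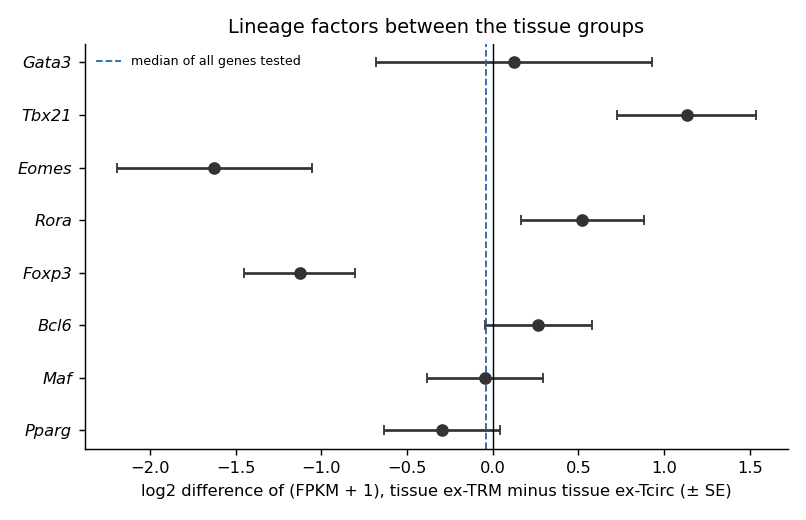
log2 difference of (FPKM + 1), tissue ex-TRM minus tissue ex-Tcirc, for each factor (points) with its standard error (bars); n = 2 libraries each. Tbx21 at 1.13 lies to the right of the dashed line, the median of all genes tested at -0.04, and Eomes at -1.63 and Foxp3 at -1.13 to the left.

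The comparison of tissue with circulating cells turned on zeros in circulating ex-Tcirc. There, 4 of the 8 factors, Tbx21, Foxp3, Bcl6 and Pparg, were listed at 0 in both libraries, and Gata3, Rora, Maf and Eomes were above 0 in both. Of the 10097 protein-coding genes with a tissue mean of at least 2 FPKM, 49.9% were at 0 in both libraries as well. The share was smaller for genes of higher level in tissue. At a tissue mean of 5 to 10 FPKM, 60.4% of genes were at 0 in replicate 1 of circulating ex-Tcirc and 78.2% in replicate 2, and at 20 to 50 FPKM 22.9% and 60.4%. The factors at 0 had tissue means of 5.03 FPKM for Foxp3, 5.42 for Bcl6, 13.8 for Pparg and 17.8 for Tbx21, and those above 0 means of 36.7 for Maf, 45.9 for Rora and 232 for Gata3. Eomes departed from that order: its tissue mean was 8.70 FPKM, yet it was at 15.6 and 37.3 in circulating ex-Tcirc. Cd3d, which encodes a subunit of the receptor complex of alpha-beta T cells, was at 19.2 to 22.6 FPKM in tissue. It was listed at 0 in both libraries of circulating ex-Tcirc. A 0 there is therefore given as a listing and not as absence of expression.

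**Figure D4:**
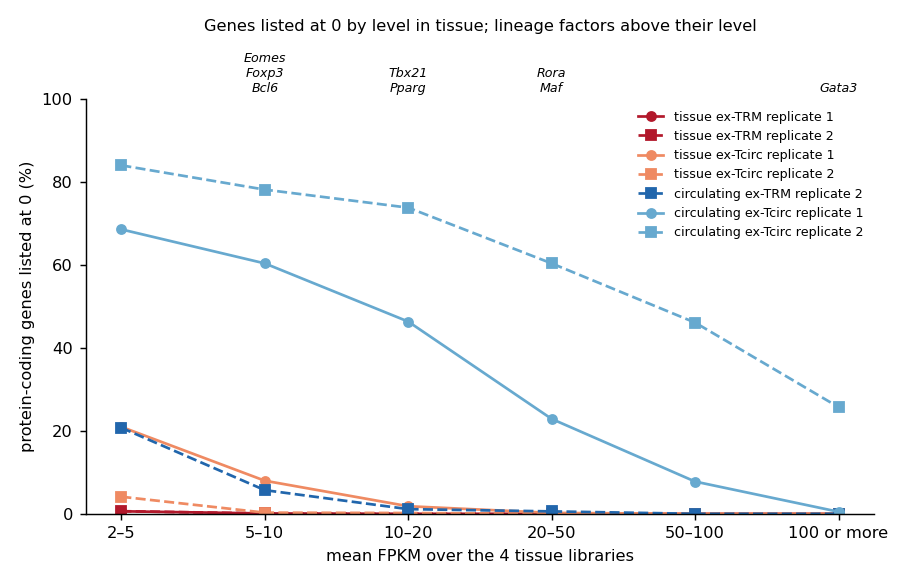
Percentage of protein-coding genes listed at 0 in each library (vertical axis) by their mean FPKM over the 4 tissue libraries (horizontal axis, in steps); names of the factors stand above their own step. In circulating ex-Tcirc replicates 1 and 2 the share at 0 is 68.6% and 84.0% at the lowest step and 0.485% and 25.7% at the highest, whereas circulating ex-TRM replicate 2 drops to 1.12% at 10 to 20 FPKM.

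Within ex-Tcirc, limma called the 4 factors at 0 higher in tissue, with adjusted p of 0.00568 for Pparg, 0.00664 for Foxp3, 0.00768 for Tbx21 and 0.00892 for Bcl6. These calls stand against 21.1% of all genes called, 20.7% higher in tissue and 0.455% lower, while over all genes the median difference was 1.11 (log2). The size of each difference depends on the pseudocount, since 1 side is at 0, and no fold is given. Gata3 differed by 1.03 ± 0.80 (SE; limma adjusted p = 0.397). Without circulating ex-Tcirc replicate 2 that difference was 2.14 (limma adjusted p = 0.00827), and without replicate 1 it was -0.069, so it rested on the low value of replicate 1. Rora and Maf differed by -0.14 and 0.50 and Eomes by -0.80 ± 0.57, none of which passed (limma adjusted p of 0.821 for Rora and 0.383 for Maf and Eomes).

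Within ex-TRM, all 8 factors were within a factor of 2 between tissue and the single circulating library. The tissue mean divided by circulating ex-TRM replicate 2 was 1.30 for Gata3, 1.19 for Tbx21 and 1.79 for Bcl6. It was 0.563 for Eomes, 0.776 for Rora, 0.502 for Foxp3, 0.811 for Pparg and 0.955 for Maf. On the log2(FPKM + 1) scale, 84.8% of the 10097 protein-coding genes were within a factor of 2 between the same libraries. limma called 0 of 28325 genes (0%) here, with 2482 at an unadjusted p under 0.05 and none of the 8 factors among them. The lone circulating library is assumed to vary like the other groups.

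Averaged over origin, 3 of the 8 factors were called higher in tissue by limma, Tbx21 (adjusted p = 0.0328), Bcl6 (0.0270) and Pparg (0.0245), against 12.8% of all genes called, 12.5% higher and 0.251% lower. Averaged over location, Tbx21 and Pparg were called higher in ex-TRM (limma adjusted p = 0.0240 and 0.0260), against 11.7% called higher and 0.06% lower. Each of these factors was at 0 in circulating ex-Tcirc, and the libraries of the origins overlapped for Pparg. None of them passed with the replicate number as a block, over all 8 libraries, or without either tissue ex-TRM library, where the limma adjusted p was 0.119 or more for Tbx21 and 0.110 or more for Bcl6 and Pparg. Eomes, above 0 in all 7 libraries, differed between origins by -1.65 ± 0.45 (SE; limma adjusted p = 0.0973). Without circulating ex-Tcirc replicate 1 its difference was -1.95 (limma adjusted p = 0.0114), beside 6606 genes called in all, with 1 circulating ex-Tcirc library left that is assumed to vary like the other groups. The test of whether the location difference itself differed between origins called 2 of the 8 factors, Foxp3 and Pparg, against 7.41% of all genes, 6.77% lower and 0.635% higher. The comparisons share libraries and are not independent of each other.

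The other genes of these programmes were taken as lists. Of 31 tested factors of helper differentiation beyond the 8, limma called 3 higher in tissue than in circulation, Gfi1, Nfil3 and Ahr, and 1 lower, Satb1, against 12.5% and 0.251% of all genes. The share called higher was thus not above that of all genes. Satb1, a chromatin organiser of T cells, had 45.8 and 49.3 FPKM in tissue ex-TRM, 27.0 and 18.6 FPKM in tissue ex-Tcirc, 92.4 in circulating ex-TRM, and 86.2 and 111 in circulating ex-Tcirc, a difference of -1.51 ± 0.29 on the log2 scale (SE; limma adjusted p = 0.0396). It was above 0 everywhere, unlike the 3 others, which were at 0 in both circulating ex-Tcirc libraries. Bhlhe40, a factor of cytokine-producing helper cells, was higher than Gata3 in all 7 libraries, at 432 and 403 FPKM in tissue ex-TRM, 235 and 335 FPKM in tissue ex-Tcirc, 493 in circulating ex-TRM, and 263 and 421 in circulating ex-Tcirc. Between the tissue groups 0 of the 31 were called, 25 had a positive difference, and the list's median was 0.28 against -0.04 over all genes.

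Of 14 tested Th2 genes around Gata3, limma called 10 higher in tissue than in circulation and 0 lower, against 12.5% and 0.251% of all genes, with a median log2 difference of 2.33 against 0.55 over all genes. Ecm1 alone among the called genes was above 0 in circulating ex-Tcirc, at 16.8 and 21.3 FPKM. The other called genes had only zeros in that group. With the replicate number as a block or with all 8 libraries, limma called 0 genes in this comparison. The same held among genes above 0 in all 7 libraries. Within ex-TRM, limma called 0 of the 14 and 0 of all genes, and 11 of the 14 had a positive difference. Ccr8, which encodes a chemokine receptor found on Th2 cells, had 83.6 and 68.6 FPKM in tissue ex-TRM, 43.7 and 66.6 FPKM in tissue ex-Tcirc and 4.59 FPKM in circulating ex-TRM, with 0 for circulating ex-Tcirc. Il1rl1, the interleukin 33 receptor, was at 112 and 64.0 FPKM in tissue ex-TRM, 82.7 and 109.9 FPKM in tissue ex-Tcirc and 34.5 FPKM in circulating ex-TRM, again with 0 in circulating ex-Tcirc. The cytokine genes Il5 and Il13 were at 9.22 to 14.3 and 4.64 to 7.37 FPKM in tissue and listed at 0 in all 3 circulating libraries. These 4 genes were lower or at 0 in circulating ex-TRM replicate 2 as well, where Gata3 itself was at 186 FPKM. Others that were called were not lower there. Areg, an epidermal growth factor family ligand, ranged over the tissue libraries between 19.5 and 34.6 FPKM, with 27.8 FPKM in circulating ex-TRM, and Ccr4, a chemokine receptor of Th2 cells, at 9.23 to 17.4 in tissue and 12.9 in circulating ex-TRM, both with 0 in circulating ex-Tcirc. Between the tissue groups 0 of the 14 were called and 8 had a positive difference, with a median of 0.31.

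Genes downstream of the T-box factors did not move as a block. Of 14 tested, limma called 3 higher in tissue than in circulation, Fasl, Cxcr3 and Prf1, all at 0 in circulating ex-Tcirc, against 12.5% of all genes, and 0 between the tissue groups, where 8 of 14 had a positive difference. Ifng, the Th1 cytokine, was at 8.51 and 15.9 FPKM in tissue ex-TRM, against 3.82 and 4.15 in tissue ex-Tcirc. Cxcr3 was at 11.4 and 16.7 FPKM in tissue ex-TRM, against 6.63 and 9.69 in tissue ex-Tcirc. Gzmk, a granzyme known from Eomes-expressing T cells, ran the other way, at 1.98 and 4.47 FPKM in tissue ex-TRM and 12.5 and 9.65 in tissue ex-Tcirc, with 7.13 in circulating ex-TRM and 58.2 and 0 in circulating ex-Tcirc. Prf1, which encodes perforin, was at 1.08 and 1.87 FPKM in tissue ex-TRM and 7.54 and 3.09 in tissue ex-Tcirc. In tissue, the libraries of the groups did not overlap for these 4 genes, as for 32.3% of all 28325 genes tested. Ifng and Gzmk were named after their values were seen. Gzmb, another granzyme gene, went opposite to Gzmk in tissue, at 1.88 and 11.9 FPKM in ex-TRM and 0 in both ex-Tcirc libraries. In circulating ex-Tcirc, Ccl5 was at 277 and 0 FPKM, Nkg7 at 22.4 and 0, and Gzmb at 22.4 and 0. Over the tissue libraries Ccl5 was at 10.2 to 47.7 FPKM and Nkg7 at 5.17 to 15.4.

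For the remaining lists, calls between tissue and circulation are set against the 12.5% of all genes called higher. Of 7 tested Th17 and Rora genes limma called 2 higher in tissue, Nr1d1 and Nr1d2, which encode circadian repressors. Il2ra, the interleukin 2 receptor alpha chain, was the 1 call among 11 regulatory genes, Il10 the 1 call among 12 follicular genes, and none of 9 PPARG targets passed. Il10 had 1.45 and 1.99 FPKM in tissue ex-TRM and was listed at 0 in the other 5 libraries. None of these lists had a call in the opposite direction or between the tissue groups.

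Across the 7 libraries, the genes most like each factor were ranked by Pearson correlation of log2(FPKM + 1) among 1748 or 1749 protein-coding genes, as a description. Tbx21 was most like Lyst (r = 0.998), Ptpn6 and Ptk2b, and Bcl6 most like Azi2 (r = 0.995), Slc20a1 and Tnk2. Brd9 led the lists of both Pparg (r = 0.999) and Foxp3 (r = 0.949). The factors at 0 in circulating ex-Tcirc share those zeros with their closest genes. Gata3 was most like Bcl2l1 (r = 0.978), Maf most like Taok3 (r = 0.983) and Rora most like Nfkbia (r = 0.950), and Rora was also like Bhlhe40 (r = 0.934). Eomes had the loosest match of the 8, Brap at r = 0.823.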

How the data were processed

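RNA was measured in 8 sorted-cell libraries, made with a strand-specific kit and sequenced as read pairs, per the labels' protocols. The deposited values are FPKM per gene, per the file headers. Per the submitters' processing notes, the genome build was mm10, and the tools, whose roles are not stated, were StringTie 3.0.1, HISAT2 2.2.1, Trim Galore 0.6.7, HOMER 4.11, MACS2 2.2.7.1 and SAMtools 1.15. Which annotation and strand setting were used is not given in the sources used here, so reads from an antisense or overlapping gene may be included.

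Groups and replicate numbers came from the sample titles. Values of repeated gene names were summed, and 38990 of 55291 names matched RefSeq, 21280 of them protein-coding. FPKM summed to 939087 to 1632198 in the 7 libraries used and to 323363 in circulating ex-TRM replicate 1. Protein-coding names held 10.2% to 14.0% of the sums in those 7. Depth is unknown, and a library with few genes above 0 gives less reliable values.

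Log2(FPKM + 1) was fitted with limma 3.58.1 in R 4.3.3 to the means of 4 groups over 7 libraries, with an intensity trend, for the 28325 names at 1 FPKM or more in at least 2 libraries. P-values were adjusted by Benjamini-Hochberg over all of them at a threshold of 0.05. The plan allowed FPKM or TPM. The fit was tested on simulated data. Single factors were compared with exact permutation tests. Named genes were the 8 factors, list members that passed, up to 4 per list and direction, and the 3 genes most like each factor. Further list members and cell markers were named after their values were seen. Members, lists and tests were chosen with earlier results of these data known, and the tests of them are no independent support. Alternatives were the pseudocount, filters, scalings, the replicate number as a block, all 8 libraries, the highest in place of the summed value of a name, only the groups compared, and leaving out each library. A fit of 4 tissue libraries over protein-coding genes with a mean of at least 2 FPKM and a crossed block were added after the data had been seen. Promoters are the 250 bases upstream of the start in RefSeq GRCm38.p6. The labels give no batch or date.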

Additional observations from a re-analysis of the deposited data

Results flagged for a closer look

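For Foxp3 and Pparg the difference between tissue and circulation differed between the origins. The difference in ex-TRM minus that in ex-Tcirc was -3.83 ± 0.51 (SE; log2) for Foxp3 and -4.31 ± 0.53 for Pparg, each with a limma adjusted p of 0.0427. This interaction was called lower for 6.77% of the 28325 genes tested, the median over all genes was -1.21, and 2 of the 8 factors passed. Both were listed at 0 in circulating ex-Tcirc, where 49.9% of protein-coding genes of at least 2 FPKM in tissue were also at 0, and stood at 5.52 and 15.2 FPKM in the single circulating ex-TRM library. Neither passed when the block, all 8 libraries, other scalings or the omission of either tissue ex-TRM library was tried, with limma adjusted p of 0.0508 or more.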

How the results depend on the processing

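Values are given as log2 differences or numbers of genes called by limma; the cause of each change was not tested, beyond fewer genes or libraries entering a fit. For tissue against circulation averaged over origin, 3618 genes were called, but 6845 with a pseudocount of 0.1, 195 with a mean FPKM of at least 20, 2409 as TPM, and 0 among genes above 0 in all 7 libraries, with the replicate block or with all 8 libraries. Leaving out a library gave 0 to 10141. Within ex-Tcirc the 5984 calls became 9711, 242 and 0 under the same pseudocount and filters, 2786 with the block, 0 with all 8 libraries and 3448 to 10836 without a library. Within ex-TRM the 0 calls became 990 with the pseudocount, 854 without a filter, 4246 with only the groups compared and 0 to 3072 without a library. For origin averaged over location, 3319 became 5996, 132 and 0 under the pseudocount and filters, 1750 on the protein-coding sum, 0 with the block or all 8 libraries and 0 to 8785 without a library. For origin in tissue, 0 became 814 with the pseudocount, 584 without a filter, 486 with median-of-ratios factors and 0 to 5716 without a library. The 2099 interaction calls became 6770 with the pseudocount, 3165 without a filter, 4 at a mean of 20, 0 to 10543 without a library, and 0 among genes above 0 throughout, under the 3 other scalings, with the block or with all 8 libraries. Whether the replicate numbers pair the samples could not be decided. Correlations of same-numbered deviations were -0.11, 0.02 and -0.08, each from groups of 2 libraries. A crossed block called 0 genes in tissue, as did the block itself and the fit without a block, so these counts cannot tell pairing from none. Scaling to the protein-coding sum shifted the median of all genes in tissue to -0.20 from -0.04, and the 3 other scalings gave 0.42 to 0.66 for location averaged, 0.92 to 1.13 within ex-Tcirc, -0.09 to 0.11 within ex-TRM, 0.39 to 0.50 for origin averaged and -1.15 to -0.95 for the interaction. In tissue, Tbx21 at 0.73 to 1.53, Eomes at -2.05 to -1.21 and Foxp3 at -1.35 to -0.93 kept their direction under every setting run. Of the values of the 8 factors under other settings, 669 kept direction and side of the threshold, 38 lost a call, 26 gained one and 29, none of them called, changed sign. With all 8 libraries these were, for location averaged, Rora 1.28; within ex-TRM, Eomes 0.74, Rora 2.70, Foxp3 0.56, Maf 1.79 and Pparg 1.72; for origin averaged, Gata3 -1.43, Rora -0.90 and Maf -0.69; and for the interaction, Gata3 3.10, Rora 2.84 and Maf 1.29. Under other scalings, Maf was 0.22 within ex-TRM, -0.18 for origin averaged and 0.083 for origin in tissue, Gata3 -0.095 for origin in tissue, and Rora 0.26 and 0.19 for the interaction, for which Eomes was -0.072 at the lower pseudocount. Over the fits without a library, Rora was -0.33 to 0.061 and Gata3 -0.069 to 2.14 within ex-Tcirc, Gata3 -0.095 to 1.01 for origin averaged and -0.070 to 0.31 in tissue, Maf -0.19 to 0.10 in tissue, and for the interaction Eomes -0.56 to 0.65 and Gata3 -1.77 to 0.43. Without circulating ex-TRM replicate 2 the comparisons that need it could not be fitted, and averages have no fit of only the groups compared. A group of 1 or 2 libraries and unknown depth limit every value, and a pair of zeros lowers the spread of a gene.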
